A study of Rattus norvegicus with 4 samples.

Results

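The levels of 7 genes linked to axon regeneration, Sprr1a, Csrp3, Gap43, Ecel1, Stac2, LOC100912228 and Dusp26, were measured across rat trigeminal tissue. They are 7 of the 32623 genes counted in the series. They were found by their symbol in the gene table, each on a single row, and had been picked because their UMI counts differed between capture areas and because they were found in the same spots, so those differences are given below as a description, without a p-value. Spatial transcriptomes were captured on 4 areas of a Visium slide, in which each spot is a barcoded patch of tissue that can hold several cells or parts of cells. TN1, TN2 and TN3 each held the trigeminal root, ganglion and proximal branches from the compressed side of 1 rat with trigeminal neuralgia (TN), a pain model made by chronic one-sided mechanical compression of the trigeminal root. HC, the healthy control, was 1 area holding tissue of 2 animals. All animals were adult male Sprague-Dawley rats, labelled wild type. Tissue was taken once pain behaviour had settled, on a day that the sources used here do not state. The series description takes HC from the healthy side of 2 of the 3 TN rats, whereas the methods describe sham-operated controls, so HC is used as labelled and may not be independent of TN.

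After a peripheral axon is cut or crushed, a sensory neuron switches on a regeneration program in its cell body. Transcription factors such as Atf3, Jun and Sox11 are induced, followed by neuropeptides, cytoskeletal proteins and membrane proteins that serve the regrowing axon. Among the 7 genes, Sprr1a encodes a small proline-rich protein of cornified skin that is otherwise known from injured sensory neurons, where it promotes axon outgrowth. Csrp3 encodes the muscle LIM protein, a cytoskeletal adaptor of striated muscle that is also made by regenerating sensory neurons. Gap43 encodes a growth cone phosphoprotein, Ecel1 a membrane metallopeptidase induced by nerve injury, Stac2 an adaptor of voltage-gated calcium channels, and Dusp26 a dual-specificity phosphatase found in neurons. LOC100912228 is a gene symbol that has been annotated as similar to pro-neuropeptide Y. Its reads could be split with those of Npy, so the values of both are uncertain.

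Values for TN below are in the order TN1, TN2 and TN3. Each area held 1256 to 2013 spots and 23546025 to 41335930 UMIs, with a median of 9487, 30808 and 14480 UMIs per spot in TN and 14616 in HC. Levels are UMIs per 1000000 UMIs of the area or spot class (CPM), and intervals given for them cover counting error only. Of 3573 distinct barcode sequences, 2337 occurred in more than 1 area and 52 in all 4. To separate parts of the tissue, each spot was scored for markers of sensory neurons, of peripheral (Schwann cell) myelin and of central (oligodendrocyte) myelin. The top 25% of all spots by the sensory neuron score were called neuron-rich. Of the others, spots in the top 25% by the peripheral and then by the central myelin score were called peripheral and central myelin-rich. The areas differed in make-up, since neuron-rich spots were 18.3%, 15.4% and 9.55% of TN spots and 51.0% of HC spots. Within neuron-rich spots the 13 sensory neuron markers found summed to 8319.6, 8986 and 8188 CPM in TN against 8139 in HC, and Tlx3 was at 0 in TN3. Over whole areas, or in a spot that holds several cells, fewer cells of a type and less RNA per cell cannot be told apart.

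Of the 7 genes, Sprr1a and Ecel1 could be matched to a promoter entry in RefSeq (assembly GRCr8). The Sprr1a promoter is shown because this gene had the largest ratio of mean TN level to HC level, which rests on 2 HC UMIs, and because it holds repeated matches to short motifs named for the factor families that the injury program involves. The line gives the 250 bases before the Sprr1a start on the minus strand, chr2:180752626-180752875, read 5′ to 3′ along the gene. Capitals mark matches to TGACTCA or its reverse complement TGAGTCA (the AP-1 motif, bound by Jun dimers) and to TGACATCA (a variant of the CRE motif, bound by Jun and Atf dimers). The motifs were chosen after this sequence was seen.
Sprr1a: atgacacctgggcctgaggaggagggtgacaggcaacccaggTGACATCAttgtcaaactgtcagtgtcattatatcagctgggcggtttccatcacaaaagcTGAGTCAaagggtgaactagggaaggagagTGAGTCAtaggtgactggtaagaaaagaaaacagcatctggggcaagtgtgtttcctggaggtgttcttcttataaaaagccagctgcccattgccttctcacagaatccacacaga

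TGAGTCA began at -147 and at -117 relative to the Sprr1a start, and TGACATCA at -208. Across 33469 promoters of the same length, TGACTCA on either strand was present in 4.05%, and 39 of them (0.117%) held 2 or more matches. TGACATCA or its reverse complement TGATGTCA was in 3.80%. The Ecel1 entry lies inside the annotated span of that gene and not before it. Its window held none of these motifs, nor TGACGTCA, which was in 1.59% of promoters. Of the 26 other regeneration genes with a promoter entry, 2 (Nts and Plaur) held TGACTCA and 4 (Sox11, Klf6, Nts and Flrt3) TGACATCA, on either strand. A match describes the letters of the window and not a bound site.

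The first comparison asks how the levels differed between the compressed and the healthy tissue. Sprr1a, Csrp3, Ecel1, Stac2 and LOC100912228 were higher in each TN area than in HC, both over all spots and in neuron-rich spots. Gap43 and Dusp26 were higher in each TN area in neuron-rich spots, whereas over all spots TN3 reached no more than the HC level. So 5 of 7 genes over all spots and 7 of 7 in neuron-rich spots had all TN areas above HC, where 28.7% and 28.2% of all genes tested did. Since the genes were picked on this contrast, nothing is read from these counts.

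Sprr1a had 114, 370 and 96 UMIs in TN and 2 in HC, or 4.84, 9.54 and 2.98 CPM against 0.0484. All 3 TN areas were above HC, and with 2 UMIs in HC the ratios are wide, at 100.1 for TN1 (95% exact interval 27.1 to 836), 197 for TN2 (54.2 to 1635) and 61.5 for TN3 (16.6 to 515). In neuron-rich spots Sprr1a was at 8.45, 11.3 and 4.33 CPM in TN, a mean of 8.04 ± 3.51 (SD, n = 3), against 0.0664 in HC. Its level in TN2 was the highest and its level in TN3 the lowest of the TN areas, an order that held over all spots and in neuron-rich spots alike. Its relatives Sprr1b, Sprr2d and Sprr3, which belong to the same family of cornified envelope genes, had no UMI in any area.

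Csrp3 had 568, 2478 and 767 UMIs in TN but 24 in HC. In neuron-rich spots that was 44.3, 85.8 and 47.7 CPM against 0.565 in HC, a mean of 59.3 ± 23.0 CPM in TN (SD, n = 3) that was 105-fold the HC level. TN1 and TN3 were close to each other, TN2 was the highest, and HC lay far below all of them. Csrp3 is best known from muscle, so muscle markers were summed beside it. The 8 found were together at 59.4, 62.3 and 48.2 CPM in neuron-rich spots of TN and at 54.1 in HC, a range that overlaps between TN and HC. Most of each sum was Acta1, at 47.6, 47.2 and 39.6 CPM in TN against 42.4 in HC. Ckm, Mylpf, Tnni2 and Myog had at most 17 UMIs in an area there, so the sum says little about them. Tnnt3 was at 0.994, 3.81 and 2.73 CPM against 1.16. Among the relatives of Csrp3, Csrp1 was at 256, 379 and 296 CPM in these spots in TN against 263 in HC, so that HC lay within the TN range. Csrp2 was at 34.9, 123 and 127 against 49.6, with HC again inside the range.

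Gap43 was detected throughout, with 11648, 27471 and 11934 UMIs in TN and 15352 in HC. Over all spots this was 495, 709 and 370 CPM against 371, so TN3 did not exceed HC. In neuron-rich spots it was 820, 1143 and 845 CPM in TN, a mean of 936 ± 179.8 (SD, n = 3), against 456 in HC, a ratio of 2.05. Here the groups did not overlap. Set against the sensory neuron markers of the same area, whose level per neuron may itself differ, Gap43 gave 105, 165 and 120 UMIs per 1000 marker UMIs over all spots of TN and 55.7 in HC. On that scale each TN area stood above HC over all spots too. Basp1, which encodes a related growth cone protein, was at 11.1, 13.9 and 10.6 CPM in neuron-rich spots of TN and 7.80 in HC. Of the other relatives listed, Marcks was at 167, 338 and 311 CPM there in TN and 154 in HC. Marcksl1 was at 205, 265 and 279 CPM against 238, with HC inside the TN range.

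Ecel1 had 207, 596 and 149 UMIs in TN and 39 in HC. In neuron-rich spots its level was 16.0, 19.2 and 9.95 CPM in TN against 1.10 in HC, a mean ratio of 13.7. The endothelin-converting enzymes Ece1 and Ece2, which are of the same peptidase family, showed no such gap. Ece1 was at 71.5, 129 and 112 CPM against 83.2, and Ece2 at 56.5, 50.0 and 61.2 against 51.5, so HC lay inside the TN range for both.

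Stac2 had 854, 2693 and 671 UMIs in TN and 180 in HC, which was 33.0, 66.4 and 27.6 CPM in neuron-rich spots of TN and 2.72 in HC. The mean ratio was 15.5 in these spots and 9.69 over all spots. Its relatives Stac and Stac3 were close to the detection limit, with at most 15 and 5 UMIs in an area.

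LOC100912228 had 512, 1335 and 349 UMIs in TN and 63 in HC. In neuron-rich spots it was at 30.8, 37.9 and 15.4 CPM in TN and at 0.598 in HC, a mean ratio of 46.9. Npy, with which its reads may be shared, had 41, 62 and 38 UMIs in TN and 1 in HC. Both were above HC in every TN area. Pyy, also among the relatives listed, had 1, 0 and 4 UMIs in TN and 5 in HC.

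Dusp26 had 4474, 11530 and 3158 UMIs in TN and 5819 in HC, or 190.0, 297 and 98.0 CPM against 141 over all spots, where TN3 lay below HC. In neuron-rich spots it was at 322, 472 and 223 CPM against 167, a ratio of 2.03 for the mean of 339 ± 125 (SD, n = 3). Other dual-specificity phosphatases were mixed. In neuron-rich spots Dusp1 was at 56.6, 43.6 and 49.8 CPM in TN and 29.2 in HC, and Dusp6 was lowest in HC too, at 8.83. Dusp4, Dusp8 and Dusp27 had at most 47 UMIs in an area there, with HC the highest for Dusp8 and Dusp27, and Dusp13 had none. Of the 20 relatives of the 7 genes listed, 11 could be tested in neuron-rich spots and 14 over all spots, and none was called in edgeR, at an unadjusted p under 0.05 for 3 and 2 of them.

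**Figure D1:**
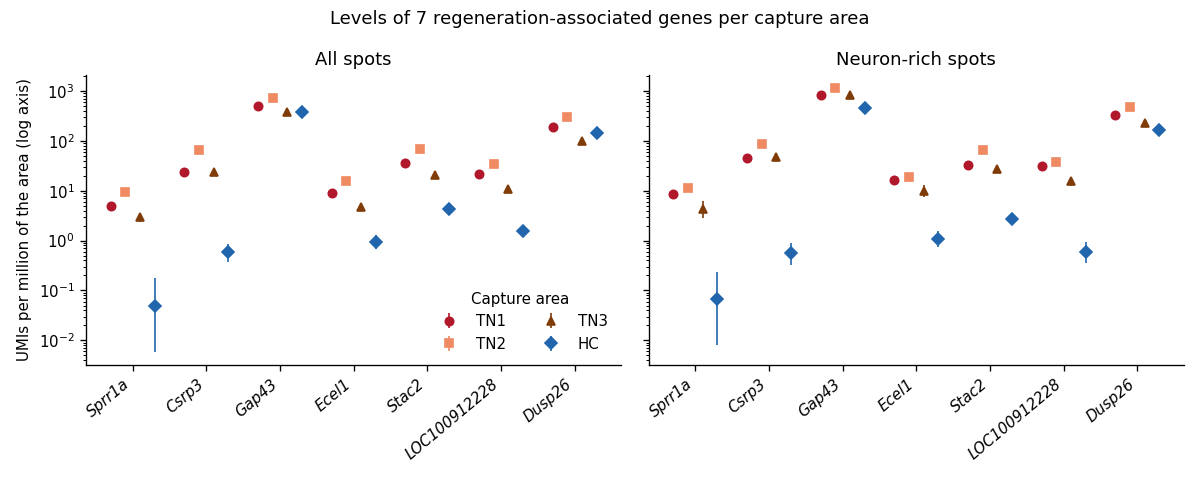
Level of each gene (UMIs per 1000000, log axis) by capture area, over all spots (left) and in neuron-rich spots (right), with 95% exact Poisson intervals as bars. HC lies below the TN areas for Sprr1a, Csrp3, Ecel1, Stac2 and LOC100912228 on both sides, and for Gap43 and Dusp26 only in neuron-rich spots.

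The fold changes from a fit over all genes place these differences among the rest. Over all spots the log2 fold change (TN over HC, edgeR) was 6.71 for Sprr1a, 5.90 for Csrp3, 3.78 for LOC100912228, 3.25 for Ecel1, 3.18 for Stac2, 0.41 for Gap43 and 0.38 for Dusp26. By size from the highest of 14902 genes tested, Sprr1a ranked 34, Csrp3 62 and Dusp26 4731. In neuron-rich spots the same quantity was 6.67 for Sprr1a, 6.61 for Csrp3, 5.46 for LOC100912228, 3.87 for Stac2, 3.70 for Ecel1, 0.96 for Gap43 and 0.94 for Dusp26. There Sprr1a ranked 12, Csrp3 14 and LOC100912228 21 of 12389, whereas Gap43 ranked 973. With 1 HC area, no gene of 14902 passed the adjusted threshold of 0.05 over all spots in edgeR (0% called, 1271 genes or 8.53% at an unadjusted p under 0.05, and 158 by DESeq2). In neuron-rich spots 1 gene of 12389 did (0.00807% called, 1424 or 11.5% unadjusted, and 182 by DESeq2). That gene, S100a8 of neutrophils, was lower in TN and is named because it stood alone, after its values were seen. Without TN1 the counts became 2171 and 1418.

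Shares of neuron-rich spots were also compared at equal depth. Each of the 7 genes was found in a larger share of these spots in each TN area than in HC. This restates how the genes were picked, so nothing is read from it, and no such count was made over all genes. The order among the TN areas was not that of the levels for every gene, since Dusp26 was lowest by level in TN3 and lowest by share in TN1. Neuron-rich spots were thinned to 5000 UMIs each, which left out 5 spots of TN1, 5 of TN3, 43 of HC and none of TN2. Csrp3 was then found in 14.0% (95% exact binomial interval 10.2 to 18.6), 28.0% (21.8 to 34.9) and 18.0% (12.6 to 24.4) of TN spots and in 0.203% of HC spots (0.0246 to 0.732). Unthinned, these shares were 43.0%, 79.8% and 49.2% in TN and 0.779% in HC. Gap43, found in most spots, differed less in this measure, at 93.0%, 99.0% and 97.2% in TN against 84.8% in HC. Dusp26 was found in 61.9%, 82.9% and 67.4% of TN spots and 51.3% of HC spots. Sprr1a was found in none of 984 thinned HC spots (an upper limit of 0.305%) and in 4.20%, 7.77% and 1.69% in TN. Its share in TN3 equals the limit that a count of 0 allows there, so it is near the detection limit at this depth.

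At equal depth, neuron-rich spots of HC seldom held more than 2 of the 7 genes. After thinning, 3 or more were found in 26.9%, 56.0% and 27.5% of neuron-rich spots in TN, but in 1.02% (10 of 984) in HC. No thinned HC spot held 4 or more (0 of 984, so at most 0.305%), whereas 8.74% of TN1 spots, 24.9% of TN2 spots and 9.55% of TN3 spots did. A single thinned spot, in TN3, held all 7. Unthinned, 4 or more were found in 51.5%, 87.0% and 44.8% of neuron-rich spots in TN and in 0.389% in HC. There 11.2% of HC spots held 3 or more. In HC the genes found were mostly Gap43 and Dusp26. These counts too follow from how the genes were picked and are a description.

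**Figure D2:**
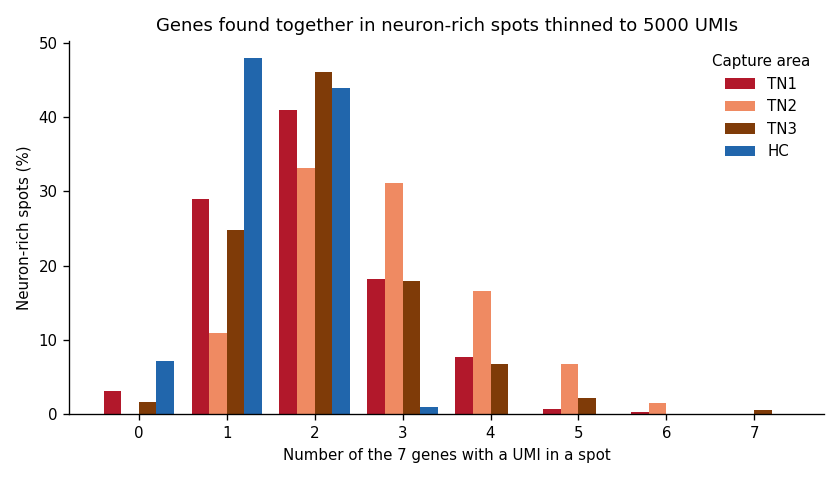
Share of neuron-rich spots (%) by how many of the 7 genes had at least 1 UMI, after thinning each spot to 5000 UMIs, with 1 bar per capture area. HC spots hold mainly 1 or 2 genes, and the bars at 4 and above belong to TN areas alone.

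Within the TN areas the genes were found together in the same spots, which was part of why they were picked. Nothing is therefore read from the pair counts below, and pairs of other genes were not compared. Pairs with Gap43, found in most spots, can exceed the product only slightly. After thinning to 5000 UMIs, co-detection in neuron-rich spots was compared with the product of the shares of spots that held each gene alone. It exceeded this product for 20 of 21 gene pairs in TN1, 18 in TN2 and 21 in TN3. In HC it did so for 4 of the 15 pairs in which both genes were found. Sprr1a and Csrp3 were both present in 9 of 193 spots of TN2 (4.66%), where the product of their shares was 2.17%. Unthinned they were both in 27.5%, where the product was 24.8%.

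Pearson's r over neuron-rich spots, taken on log2(1 + UMIs per 10000), was positive for all 21 pairs in each TN area, with a median of 0.35 in TN1 (291 spots), 0.43 in TN2 (193) and 0.28 in TN3 (183). In HC (1027 spots) 9 of 21 pairs were positive and the median was -0.00284. Sprr1a, Csrp3, LOC100912228 and Ecel1 had 2, 17, 18 and 33 UMIs in these HC spots. With counts this low, r for pairs with these genes cannot show whether they vary together in HC. The spots of an area share a library and differ in depth, so these values are a description. Gap43 and Dusp26 formed the pair with the highest r in TN1 (0.58) and TN2 (0.73), and r was 0.38 in TN3 and 0.23 in HC. Sprr1a and Csrp3 gave 0.40, 0.43 and 0.40 in TN. Their r of 0.62 in HC rested on 1 spot of 36297 UMIs that held 9 of the 24 Csrp3 UMIs of HC together with 1 of its 2 Sprr1a UMIs. Without it r was -0.00216. The r of the mean of the 7 genes with the log2 of UMIs per spot was 0.54, -0.09 and 0.25 in TN and 0.45 in HC, so it was near 0 in TN2 and positive elsewhere, and the part of depth in the pair values was not tested.

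**Figure D3:**
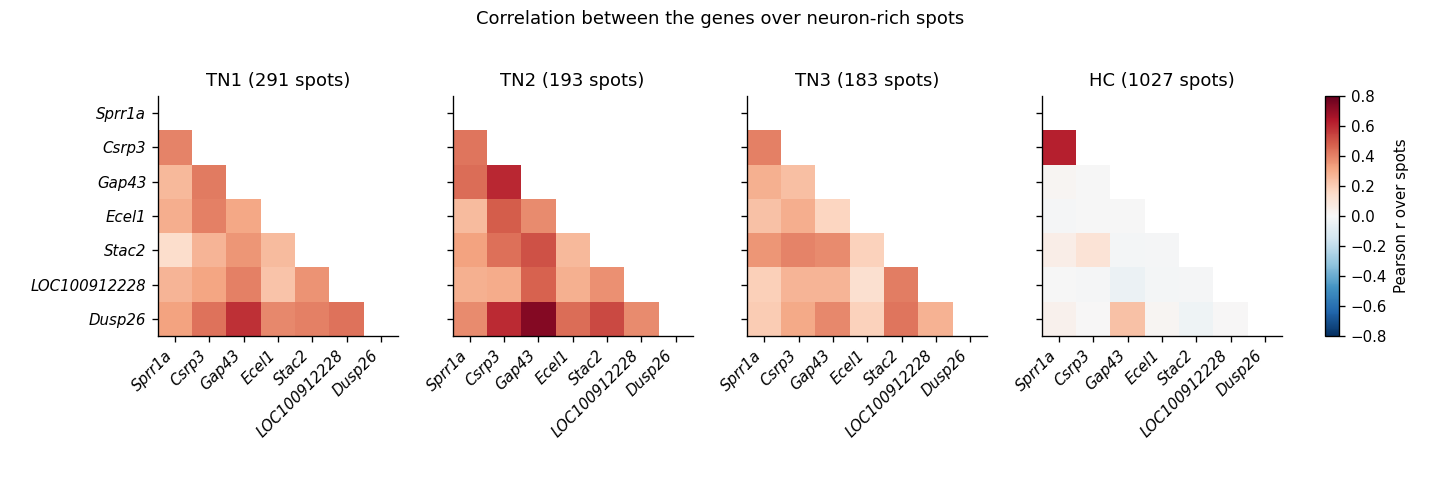
Pearson r between each pair of the 7 genes over neuron-rich spots of each area, on log2(1 + UMIs per 10000), with red for positive and blue for negative values on 1 scale. All 21 pairs are positive in TN1, TN2 and TN3, while in HC most lie near 0 and the dark Sprr1a and Csrp3 cell rests on 1 spot. Sprr1a, Csrp3, LOC100912228 and Ecel1 have few UMIs in HC, which limits r there.

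Other genes were ranked by their mean r, over the 3 TN areas, with the mean of the 7 genes in neuron-rich spots. Wherever the mean of the 7 genes is used, values were not scaled by gene, so the abundant Gap43 and Dusp26 can weigh most. Among 8021 genes with a UMI in at least 20% of these spots in each TN area, the median of this mean r was 0.02. The highest was Gal, the precursor of the neuropeptide galanin, at 0.76 (0.75, 0.87 and 0.68 by area). Next came the tubulin genes Tubb2b (0.71) and Tuba1a (0.71), the tubulin-binding Stmn2 (0.68), the small heat shock protein gene Hspb1 (0.68), the kinesin gene Kif22 (0.66) and the neuronal tubulin gene Tubb3 (0.65). The injury transcription factor Atf3 (0.64), the stress gene Gadd45a (0.64) and Nsg1, a gene of neuronal endosomes (0.61), completed the first 10. Atf3, Gal and Gadd45a were also far apart between groups. Gal was at 242, 566 and 223 CPM in neuron-rich spots of TN and at 21.8 in HC. Kif22 was at 109.8, 245 and 115 CPM against 10.1. The tubulins differed less, and Tuba1a was at 6602, 7045 and 5317 CPM against 5546, so that HC lay within the TN range.

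The next question is where in the tissue the genes were found. In each TN area, all of the 7 genes but Stac2 were higher in neuron-rich spots than in either kind of myelin-rich spot, while Stac2 was higher than in peripheral but not always than in central ones. For Csrp3 the ratio of neuron-rich to central myelin-rich spots was 9.80, 9.44 and 10.2 in TN. For Gap43 it was 4.82, 7.02 and 6.28 in TN and 4.49 in HC. Sprr1a had no UMI in central myelin-rich spots of TN3 or HC, and in TN1 and TN2 the ratio was 5.84 and 3.49. The fitted log2 difference of neuron-rich over central myelin-rich spots across the 4 areas was 3.00 for Csrp3, 2.40 for Ecel1, 2.30 for Gap43, 2.14 for Sprr1a, 2.13 for Dusp26, 0.80 for LOC100912228 and -0.64 for Stac2. Against peripheral myelin-rich spots it ranged from 0.83 for Stac2 to 1.99 for Csrp3. Of all 12212 genes tested, 23.2% were called higher in neuron-rich than in central, and 22.7% than in peripheral, myelin-rich spots. The 7 genes had been picked with the ganglion in view, so they are given no p-value here.

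Stac2 and LOC100912228 stood apart from the other 5. In HC, 76 of 180 Stac2 UMIs (42.2%) and 37 of 63 LOC100912228 UMIs (58.7%) lay in central myelin-rich spots, which held 15.1% of all UMIs of that area. Stac2 was at 44.3, 60.0 and 19.7 CPM in central myelin-rich spots of TN and at 12.2 in HC. Thus all TN areas were above HC there as well, with a mean ratio of 3.40. LOC100912228 was at 5.25, 8.43 and 6.72 CPM in these spots of TN and at 5.92 in HC, so the groups overlapped. LOC100912228 in unclassed spots was at 36.4, 41.8 and 12.5 CPM in TN and 2.17 in HC. The share of all genes with every TN area above HC was not counted in central myelin-rich or unclassed spots. Nothing is therefore read from these sides. The 5 markers of brain stem neurons, all with UMIs in each area, summed over all spots to 117, 39.0 and 4.44 CPM in TN and 8.08 in HC, and their part in these levels was not tested.

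The spots with the most sensory neuron markers were not always those with the most of the 7 genes. When all spots were ranked by the sensory neuron score in 4 bands of equal size, Sprr1a in TN2 was at 15.0 CPM in the third band and 11.3 in the top one, and in TN3 at 6.49 and 4.33. LOC100912228 was higher in the third band than in the top band of each TN area, at 43.1 against 30.8 CPM, 54.1 against 37.9 and 17.5 against 15.4. Gap43 and Dusp26, in contrast, were at their highest in the top band of every area, HC included. In HC Stac2 ran the other way, from 15.5 CPM in the lowest band through 11.1 and 6.58 to 2.72 in the top band. Within the neuron-rich spots, r between the mean of the 7 genes and the sensory neuron score was 0.13, -0.29 and -0.04 in TN, but 0.55 in HC, where Gap43 alone gave 0.48 and Dusp26 0.39. In TN2 most UMIs of each of the 7 genes lay in unclassed spots, from 53.0% for Gap43 to 63.4% for LOC100912228, with 1533 of 2478 for Csrp3 (61.9%). These spots held 52.2% of all UMIs of TN2. By level, Stac2 and LOC100912228 were higher in unclassed than in neuron-rich spots of TN1 and TN2, as was Sprr1a, slightly, in TN2. Csrp3, Gap43, Ecel1 and Dusp26 were higher in neuron-rich spots of each TN area, as were all 7 genes in TN3.

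**Figure D4:**
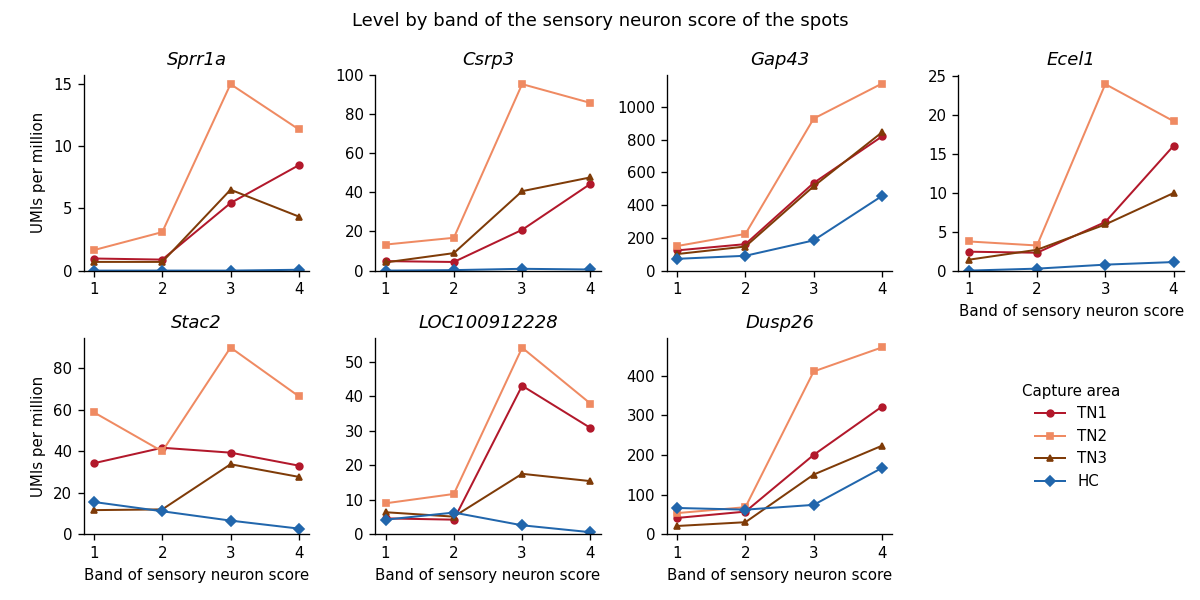
Level of each gene (UMIs per 1000000) in 4 equal bands of all spots ordered by the sensory neuron score, from the lowest (1) to the highest (4), with 1 line per capture area. Gap43 and Dusp26 are highest in the top band of every area, LOC100912228 is highest in the third band of each TN area, and Stac2 in HC is highest in the lowest band.

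Peripheral and central myelin-rich spots were compared in a contrast with neither TN against HC nor neuron-rich spots on either side. It came from the same fit as the neuron-rich contrasts. Neuron-rich sums thus entered its filter on low counts and its estimates of spread, so it is not fully independent of those spots. The 7 genes were also picked with earlier results of these data known. Their p-values here are therefore a description and not independent evidence. Here 30.3% of 12212 genes were called in either direction (edgeR quasi-likelihood, adjusted p under 0.05, capture area as a block), 15% higher and 15.2% lower in peripheral spots. Of the 7 genes, 1 was called higher (Csrp3) and 1 lower (Stac2), a share near that background. Stac2 was at 7.82, 40.6 and 14.4 CPM in peripheral myelin-rich spots of TN and 2.34 in HC, lower in peripheral spots than in central ones in 4 of 4 areas. Its log2 difference was -1.47 ± 0.41 (SE, edgeR adjusted p = 0.0183). Without TN1 the edgeR adjusted p was 0.0945, the highest of 12 alternatives that began at 0.00203.

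Csrp3 was at 5.40, 23.3 and 13.8 CPM in peripheral spots of TN and at 4.52, 9.08 and 4.65 in central ones. In HC it was at 0.781 and 0.320, from 1 and 2 UMIs, so it was higher in peripheral spots in 4 of 4 areas. The fitted log2 difference in level was 1.01 ± 0.30 (SE, edgeR adjusted p = 0.0267). Per 1000 sensory neuron marker UMIs the direction was mixed. Csrp3 was then at 3.49, 9.81 and 8.31 in peripheral spots of TN and 0.185 in HC. In central spots it was at 3.38, 11.7 and 6.17 in TN and 0.190 in HC, so TN2 and HC were lower in peripheral spots. The part of sensory neuron RNA in the difference was not tested. It passed in 7 of 12 alternatives, with adjusted p from 0.00982 to 0.262. It did not pass without TN2 or without TN3. The other 5 did not pass. Ecel1 had a log2 difference of 1.10 ± 0.41 (edgeR adjusted p = 0.0635), Gap43 0.49 ± 0.23 (0.142), Sprr1a 0.62 ± 0.51 (0.396), Dusp26 0.27 ± 0.25 (0.454) and LOC100912228 -0.37 ± 0.83 (0.783). Without TN1, Gap43 and Ecel1 passed, at log2 differences of 0.77 and 1.54.

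The 7 genes were set beside 34 other genes of the injury and regeneration program. Of these, 29 could be tested in neuron-rich spots. None was called in edgeR, 17 had an unadjusted p under 0.05, and DESeq2 called 9, all higher (0.944% of all genes were called higher by it). The log2 fold change was positive for 28 and negative for 1, with a median of 1.09 against 0.03 over all genes. Of the 29, 26 had all 3 TN areas above HC, where 28.2% of all genes tested did (on TMM-scaled CPM). Over all spots 32 were tested. Again none was called in edgeR, 10 had an unadjusted p under 0.05 and DESeq2 called 6, all higher (0.852% of all genes). There 25 were positive and 7 negative, and the median was 0.95 against 0.06. Over all spots 21 of the 32 had all 3 TN areas above HC, where 28.7% of all genes tested did (on TMM-scaled CPM). The list was chosen with results of these data known and is not independent evidence.

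By group, the 5 transcription factors tested in neuron-rich spots and the 5 neuropeptides were all positive, at medians of 1.19 and 3.66. Atf3 was at 126, 264 and 134 CPM in TN and 5.25 in HC, with a fitted log2 fold change of 4.97 ± 0.58 (SE, edgeR adjusted p = 0.154). Vip, a neuropeptide of injured sensory neurons, was at 27.6, 43.2 and 37.2 CPM against 2.69. Npy was at 2.39, 2.47 and 1.28 CPM and had no UMI in neuron-rich HC spots, so it was at least 12.9-fold higher in each TN area, with a floor of 3 UMIs in HC. The 11 surface, receptor and enzyme genes tested were also all positive, at a median of 1.41, among them the cholecystokinin receptor gene Cckbr at 5.87, 7.51 and 3.05 CPM against 0.664. The 8 growth cone and cytoskeleton genes differed less, at a median of 0.37, with 7 positive. Over all spots 5 of these 8 were negative, at a median of -0.16, and no adjusted p passed.

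**Figure D5:**
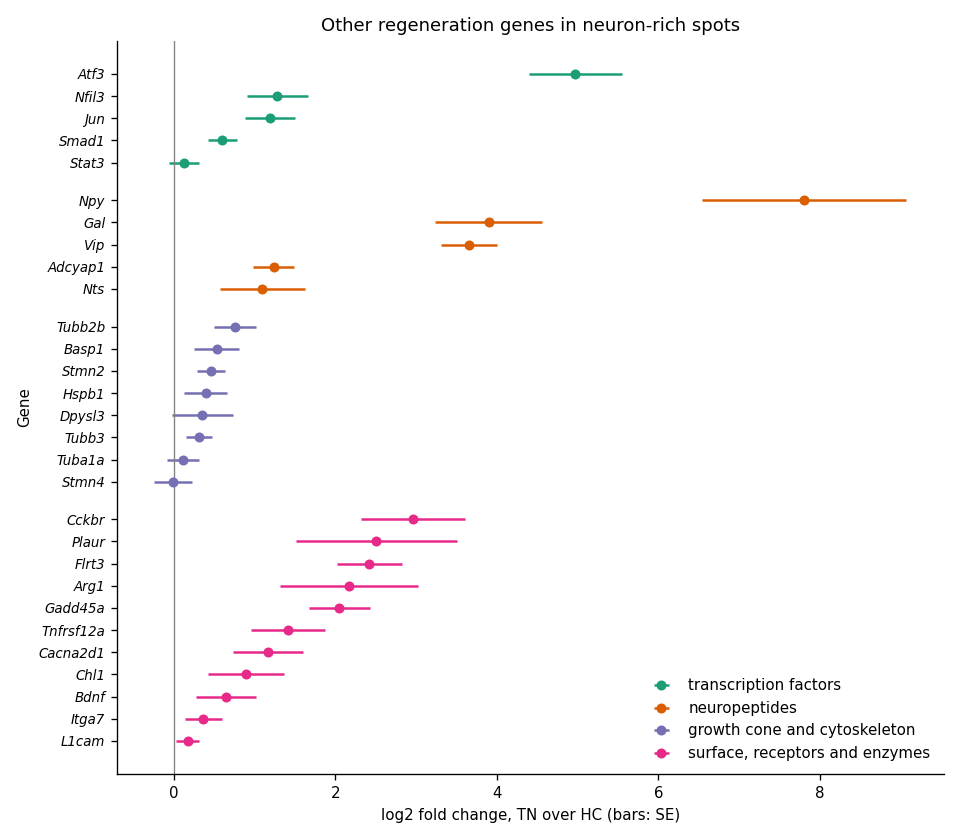
Fitted log2 fold change (TN over HC, x axis) of 29 other regeneration genes in neuron-rich spots, in 4 groups by colour, with SE as bars. Npy, Atf3, Gal and Vip lie farthest to the right, Adcyap1 and Nts lie mid-range, cytoskeleton genes reach at most 0.76 (Tubb2b), and the value of Npy is a fit against 0 UMIs in HC and no bound.

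The same list was placed by spot class. Of 29 genes tested, 21 were called against peripheral myelin-rich spots (20 higher in neuron-rich spots, 1 lower), where 42.8% of all genes were called. Among those with the same direction in all 4 areas, the 3 with the largest difference were Adcyap1, encoding the neuropeptide PACAP (log2 1.87 ± 0.26, edgeR adjusted p = 0.000735), Stmn2 (1.80 ± 0.27, 0.000973) and Vip (1.76 ± 0.21, 0.0005). Against central myelin-rich spots 21 were called (19 higher, 2 lower), where 43.8% of all genes were called, led by Adcyap1 at 2.75 ± 0.28 (edgeR adjusted p = 2.68e-05). Between the myelin classes 12 were called, 10 higher in peripheral and 2 in central spots, where 30.3% of all genes were called. Atf3 was higher in peripheral spots (log2 1.48 ± 0.32, edgeR adjusted p = 0.00509), as was the laminin receptor gene Itga7 (1.83 ± 0.18, 2.6e-05), whereas Stmn4 was lower (-2.93 ± 0.20, 3.51e-06).

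Markers of other cells were summed beside these levels. Macrophage markers were at 357, 787 and 1131 CPM over all spots of TN and 247 in HC, and all 6 genes had UMIs in each area. In neuron-rich spots they summed to 248, 448 and 386 against 147, so the sum was higher in each TN area there too. Aif1, C1qa, C1qb, Cd68 and Csf1r were above HC in every TN area on both counts. Cd163 went the other way, at 1.23, 1.86 and 0.96 CPM over all spots of TN against 1.96 in HC. In neuron-rich spots it was at 1.29, 1.46 and 1.93 CPM against 1.96. Repair Schwann cell markers summed to 381, 701 and 622 CPM over all spots of TN and 487 in HC, so the sums overlapped. Gdnf was at 0 in TN2 and HC. Most of each sum was Ngfr, at 346, 582 and 484 CPM against 454. Sox2, Runx2, Btc, Artn and Shh were above HC in every TN area. Sox2 was at 30.0, 79.1 and 98.3 CPM against 29.3, and Runx2 at 2.68, 24.0 and 20.8 against 1.55. TN1 was close to HC for Sox2 and Artn, and Shh had at most 11 UMIs in an area. In neuron-rich spots the repair markers summed to 594, 766 and 655 CPM against 578, above HC in each TN area. Gdnf was at 0 there in TN2, TN3 and HC, and Shh in TN2 and TN3. Peripheral myelin markers were lower in neuron-rich spots of TN, at 17784, 17174 and 21257 CPM against 28066. The part of these cells in the levels of the 7 genes was not tested. Sprr1a is also a skin gene, and of 7 keratinocyte markers found, Krt14, Sprr1b and Sfn were at 0 in neuron-rich spots of every area, and the whole list was at 19.4, 14.2 and 14.6 CPM in TN and 20.3 in HC.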

How the data were processed

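UMI counts were deposited by the authors for 32623 genes and 6773 spots under tissue, as raw counts made with Space Ranger 1.2.0 per the file headers. STAR is named in the submitters' processing notes. The sources used here name no genome build or annotation and do not say whether depth was equalised between areas. Areas were told apart by the number after each barcode, which the series description orders as TN1, TN2, TN3 and HC. With 1 HC area, capture area and group cannot be told apart. The HC spread is assumed to equal that of TN, leaving 2 residual degrees of freedom.

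The 7 genes, the gene lists and the spot classes were chosen with earlier results of these data known. Spot scores were the mean of log2(1 + UMIs per 10000) over marker genes. Counts were summed per area, or per area and spot class, since spots are not replicates, and tested with edgeR 4.0.16 (quasi-likelihood, TMM, filterByExpr, Benjamini-Hochberg at 0.05, R 4.3.3), while DESeq2 1.42.0 was an alternative. Class contrasts had the area as a block. Intervals were exact at 95%, and the floor was 3 counts. Sequences came from RefSeq (GRCr8). Named genes were the 7, the listed genes past the threshold or, where over 8 or under 3 passed, the 3 with the largest change in the same direction in all areas, their relatives with at least 10 UMIs, and the 10 genes most alike by r. Dusp1, Dusp6, Cckbr and Stmn4 and the relatives shown are from the lists, and S100a8 and Vip in neuron-rich spots were named after their values were seen. Tested on simulated counts, the neuron-rich fit of 12389 genes recovered 34.3%, 80.6% and 92.4% of genes changed by log2 1, 2 and 3, with 6 false calls. The all-spots fit of 14902 genes recovered 4.48%, 35.8% and 84.8%, with 9 false calls, and the fit between myelin classes (12212 genes) 64.2%, 89.6% and 98.5%, with 6. The simulated counts had 1 mean profile shared by all sums and a spread set by the trend alone. They left out spread particular to a gene and differences in make-up between areas, so recovery in the real data can be lower. In the real neuron-rich fit, fitted log2 fold changes of 4.97 (Atf3), 3.90 (Gal) and 3.66 (Vip) were not called. The simulated shares should therefore not be carried over to that fit.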

Additional observations from a re-analysis of the deposited data

Results flagged for a closer look

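Dusp26 in neuron-rich spots was above HC in each of the 3 TN areas, with a mean log2 ratio of 0.948, and lower in all 3 in central myelin-rich spots, with a mean log2 ratio of -0.345 (both on log2(CPM + 1)). It drew attention because the sign of the log2 ratio was opposite in the 2 spot classes in every area. In central myelin-rich spots the log2 ratios were -0.05 in TN1, -0.05 in TN2 and -0.94 in TN3, so that TN3 carried most of the difference there. The levels were 64.0 CPM in TN1 (exact interval 57.5 to 71.1) and 63.9 in TN2 (55.3 to 73.5). Both intervals held the HC level of 66.3 (60.0 to 73.0). Only TN3, at 34.1 (26.4 to 43.4), was lower beyond counting error. Per 1000 sensory neuron marker UMIs, Dusp26 in these spots was instead higher in TN, at 47.8, 82.3 and 45.2 against 39.4 in HC. The difference between the classes was not tested.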

How the results depend on the processing

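No paired analysis was possible because HC is 1 area without a replicate number. In the TN against HC fits the number of genes called depended on the tool and the libraries. DESeq2 called 158 over all spots and 182 in neuron-rich spots. In neuron-rich spots 45 genes were called with no filter on low counts and 0 when classes were set within each area, which also gave 3227 calls for neuron-rich against peripheral myelin-rich spots. For the regeneration list DESeq2 called 6 over all spots and 9 in neuron-rich spots, and 5 were called in neuron-rich spots with no filter. Leaving out 1 area at a time gave 0 to 2171 calls over all spots and 0 to 1418 in neuron-rich spots, both highest without TN1. It gave 2836 to 5059 for neuron-rich against peripheral, 3461 to 5429 against central, and 2168 to 3505 for peripheral against central myelin-rich spots, where leaving out HC was added after seeing the data. For the regeneration list the ranges were 0 to 8, 0 to 14, 10 to 21, 16 to 23 and 7 to 12. The cause of these shifts was not tested.

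The fitted log2 fold changes of the 7 genes in TN against HC kept their sign under all alternatives, except Dusp26 over all spots, which ran from -0.01 to 0.71. In neuron-rich spots Csrp3 ran from 6.28 to 6.80 and Gap43 from 0.64 to 1.11. With a pseudocount of 5 CPM in place of 1, the mean log2 ratio of Sprr1a in neuron-rich spots went from 3.00 to 1.33. Leaving out TN3, an alternative added after seeing the data, put 7 of 7 genes above HC over all spots. TN3 was the area in which Gap43 and Dusp26 did not exceed HC, so this count follows from the choice of area. The share of all genes above HC was not counted without TN3, and nothing is read from it. Pairs above the product in the 3 TN areas numbered 59 of 63 at 5000 UMIs, 45 at 2000 UMIs and 46 unthinned. Sprr1a, with 2 UMIs in HC, is the gene whose ratio depth limits most.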

Other observations

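Among 2013 spots of HC, 1 neuron-rich spot of 36297 UMIs held 9 Csrp3 UMIs, 1 Sprr1a UMI, 25 Gap43 UMIs, 10 Dusp26 UMIs, 1 Stac2 UMI and 4 Atf3 UMIs, with none of Ecel1, LOC100912228 or Npy. It held more Csrp3 than any other HC spot, in an area with 24 Csrp3 UMIs in all. The other HC spot with a Sprr1a UMI, of 59478 UMIs, had no Csrp3 or Atf3 and 4 Gal UMIs. The spots were singled out after their values were seen.

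In TN the highest count in a single spot was far above that in HC for Csrp3, at 37, 103 and 28 UMIs in TN1, TN2 and TN3 against 9. In TN2 the spot with the most Csrp3 was an unclassed one. For Gap43 the highest counts were 134, 168 and 103 against 76.

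S100a8, which encodes a calcium-binding protein of neutrophil granules, was at 3.38, 3.59 and 3.53 CPM in neuron-rich spots of TN1, TN2 and TN3 and at 47.6 in HC (log2 fold change -3.84, edgeR adjusted p = 0.013). Markers of blood and bone summed to 534, 149 and 334 CPM in these spots of TN and 593 in HC. That list holds S100a8 itself and also S100a9, which was at 4.77, 4.48 and 8.35 CPM in TN and 48.2 in HC. The sum thus partly restates S100a8, and nothing is read from its side. The part of these cells in the difference was not tested.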
